A study of Mus musculus with 24 samples.

Results

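DNA methylation was compared between embryoid bodies and the induced pluripotent stem (iPS) cells they were made from, in mouse cells with a miR-203 knock-in. Embryoid bodies are aggregates, made here in hanging drops, in which pluripotent cells differentiate. The comparison was set by the sample labels alone: bodies of the knock-in clones N5 and N9 against the cells of the same clones at day 25. It used 8 of the 24 sequenced samples, which are 4 of the 12 libraries, because each library was run on 2 lanes and the lanes were summed.

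All knock-in cells carried a miR-203 transgene switched on by doxycycline, and the labels of the 4 libraries name both the knock-in and doxycycline. Per the design text, doxycycline was given for 5 days, the day 25 cells were taken 20 days after it was withdrawn, and the bodies at day 32, after 7 days of differentiation. Wild-type iPS cells of the same protocol gave 1 library at day 25 and 1 of bodies, whose label gives 10 days of differentiation and names no doxycycline. In any comparison with the wild type, genotype and length of differentiation therefore cannot be told apart. The iPS cells grew on feeder cells, so a library may hold DNA of feeders. Each clone gave 1 library a stage, so n = 2 throughout, p-values measure only the spread between 2 clones, and an exact permutation test of 2 against 2 libraries cannot go below 0.33. A level here is the share of methylated calls among all calls, in percent, and changes are in percentage points, given as mean ± SD of the changes in the 2 clones.

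In mammals, methyl groups are placed mostly on the cytosine of CpG, a C followed by a G. Dnmt3a and Dnmt3b, helped in early cells by Dnmt3l, add new methylation, and Dnmt1, brought to replicating DNA by Uhrf1, copies it to the new strand. Mouse pluripotent cells in the naive state are known to be low in methylation and to gain it as they leave that state, while dense clusters of CpGs at promoters mostly stay bare, genes of the germ line are among the promoters that become methylated, and imprinted control regions keep the mark on the copy from 1 parent.

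The 4 libraries held between 118232301 (N9, day 25) and 185790052 (N5, day 25) calls at autosomal CpGs, a mean of 5.80 to 9.11 calls at each CpG. N5 at day 25 was read most deeply, and its levels are the most precise of the 4. Both N5 libraries were read on 1 flow cell and both N9 libraries on the other, so flow cell and clone cannot be told apart, but stage is not tied to either. Coverage of chromosome 8 relative to chromosome 5 was 1.35 and 1.37 at day 25 and 1.36 (N5) and 1.19 (N9) in bodies, against 1.04 and 1.00 in the wild type. The first 4000000 bp of chromosome Y, again set against chromosome 5, had a coverage of 0.0128 and 0.0106 at day 25 but 0.000893 and 0.000224 in bodies. Mitochondrial coverage relative to chromosome 5 was 0.505 in N5 at day 25 and between 7.00 and 12.0 in the other 3 libraries. The part of these differences in the results below was not tested, beyond leaving out chromosome 8, which moved the autosomal change from 23.6 to 23.5 points.

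The promoters of 6 genes show what the change looked like on the DNA. Each is the 250 bases before the transcription start given by RefSeq on GRCm38.p6, the assembly that the build name mm10 stands for, printed 5′ to 3′ on the gene's strand in lower case with every CG in capitals. The first 3 belong to genes with some of the highest gains of all gene windows. The same ranking of gains also picked Gm34948, Spic and Klf17, whose promoters are not printed. That of Spic held 1 CG with 2 to 4 calls in each of the 4 libraries. The last 3 printed, chosen after their values were seen, are a germline gene, a pluripotency gene that gained little, and a CpG-dense promoter that stayed bare.
4930579D09Rik, chr6:143535509-143535758, minus strand: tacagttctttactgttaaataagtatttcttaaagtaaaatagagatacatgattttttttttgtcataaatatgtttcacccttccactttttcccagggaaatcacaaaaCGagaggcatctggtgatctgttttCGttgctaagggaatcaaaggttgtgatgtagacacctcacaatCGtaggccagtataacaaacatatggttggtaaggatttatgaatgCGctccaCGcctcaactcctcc
LOC118027456, chr6:134243720-134243969, minus strand: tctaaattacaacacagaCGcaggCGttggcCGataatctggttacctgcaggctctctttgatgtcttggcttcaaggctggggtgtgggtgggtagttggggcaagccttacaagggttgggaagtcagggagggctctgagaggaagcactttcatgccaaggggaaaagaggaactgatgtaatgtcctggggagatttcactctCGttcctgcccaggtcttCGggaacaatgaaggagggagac
Il18r1, chr1:40465756-40466005, plus strand: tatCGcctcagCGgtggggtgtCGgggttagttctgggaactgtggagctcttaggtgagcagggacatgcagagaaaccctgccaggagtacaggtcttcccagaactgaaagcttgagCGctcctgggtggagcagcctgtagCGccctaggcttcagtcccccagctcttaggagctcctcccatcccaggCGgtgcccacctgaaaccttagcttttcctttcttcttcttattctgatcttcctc
Hormad2, chr11:4441083-4441332, minus strand: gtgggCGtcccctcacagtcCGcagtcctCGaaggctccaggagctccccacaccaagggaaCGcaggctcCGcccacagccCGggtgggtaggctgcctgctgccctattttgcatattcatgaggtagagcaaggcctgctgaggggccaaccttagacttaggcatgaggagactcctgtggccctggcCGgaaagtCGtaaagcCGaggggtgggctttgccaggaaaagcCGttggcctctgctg
Nanog, chr6:122707239-122707488, plus strand: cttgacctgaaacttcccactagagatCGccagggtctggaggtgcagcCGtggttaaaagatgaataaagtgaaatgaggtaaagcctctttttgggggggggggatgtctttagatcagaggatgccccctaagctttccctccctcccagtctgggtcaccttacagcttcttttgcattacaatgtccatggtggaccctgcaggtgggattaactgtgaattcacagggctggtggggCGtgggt
Uhrf1, chr17:56304063-56304312, plus strand: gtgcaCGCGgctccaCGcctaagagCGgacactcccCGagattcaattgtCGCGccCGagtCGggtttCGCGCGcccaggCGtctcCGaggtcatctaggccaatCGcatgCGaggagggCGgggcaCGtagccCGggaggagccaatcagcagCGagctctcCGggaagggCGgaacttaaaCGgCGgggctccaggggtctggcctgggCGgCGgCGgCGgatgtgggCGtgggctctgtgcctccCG
Of 31396 autosomal promoters of this length, 92.4% hold at least 1 CG, with a median of 6, so the 5 CGs of the lncRNA 4930579D09Rik and the 6 of Il18r1 are ordinary numbers and the 30 of Uhrf1 are many.

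Over the 250 bases of 4930579D09Rik, 4.41% of 68 calls in N5 and 2.86% of 35 calls in N9 were methylated at day 25, and 69.6% of 23 calls and 67.7% of 31 calls in bodies. Its 5 CGs lay between 0 and 14.3% at day 25 and between 50 and 88.9% in bodies, so the gain ran over the whole stretch and not over a single site. LOC118027456, another lncRNA, went from 0 (115 calls) and 2.86% (70 calls) to 79.5% (39 calls) and 55.6% (45 calls). In Il18r1, which encodes a receptor chain for interleukin 18, the level rose from 7.69% (52 calls) and 3.70% (27 calls) to 76.9% (13 calls) and 51.9% (27 calls). The Hormad2 stretch, in the promoter of a protein of the meiotic chromosome axis, rose from 3.80% (79 calls) and 3.28% (61 calls) to 38.04% (92 calls) and 47.0% (66 calls), and each of its 10 CGs was higher in bodies. The 3 CGs before Nanog, a transcription factor of pluripotency, had 0 methylated of 43 and of 41 calls at day 25, and 6.25% of 32 and 3.85% of 26 calls in bodies. The 30 CGs before Uhrf1 had 0 methylated of 246 and of 187 calls at day 25, and 0.67% of 150 and 0 of 347 calls in bodies. These stretches are a closer view of a small part of the windows tested below and carry no test of their own.

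Across 12526381 autosomal CpGs with a call in every library, methylation rose from 48.6% in N5 and 47.9% in N9 at day 25 to 72.2% and 71.4% in bodies. In pooled calls the clones gained almost the same amount, 23.60 points in N5 and 23.55 in N9, a change of 23.6 ± 0.0333 points. With each CpG given equal weight, N5 gained 22.7 points and N9 24.1, so the closeness of the clones depended on the weighting. The bodies stood 6.68 points above the clones' own level at t=0, which was 65.1% and 65.2% before doxycycline. In the wild type the level went from 61.2% to 69.7%, a change of 8.49 points, so bodies of both genotypes ended within 3 points of each other although the knock-in cells started lower. Both body libraries lay above both day 25 libraries by far more than the clones differed. Because these are bulk samples, a change within cells and a change in the mix of cells cannot be told apart.

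**Figure D1:**
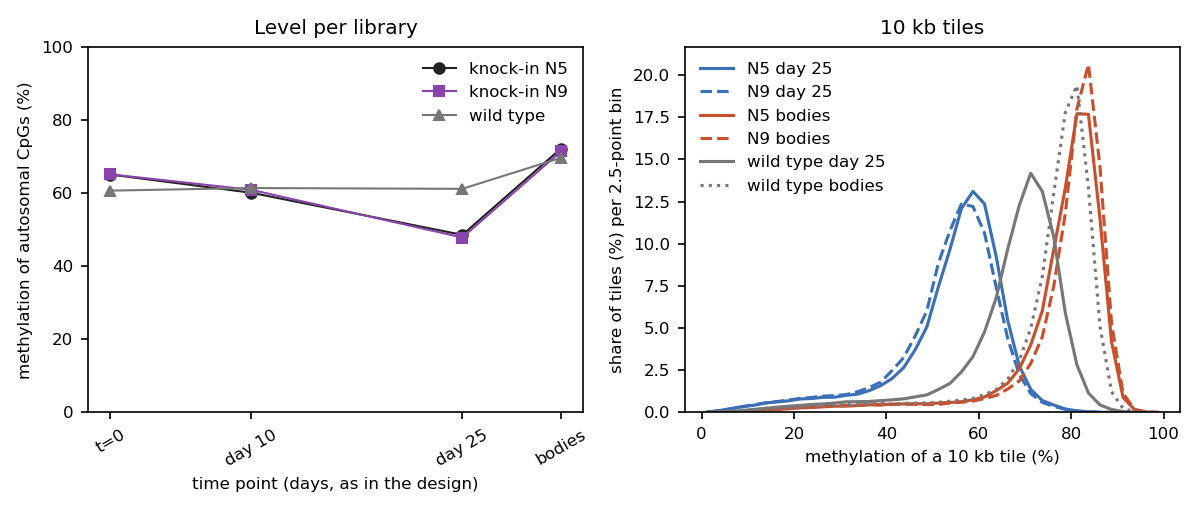
Left, methylation of autosomal CpGs (%) in each library against time point, with 1 point per library for knock-in clones N5 and N9 and the wild type. Right, the share of 10 kb tiles (%) in each 2.5-point bin of methylation level for the 6 libraries of day 25 and of bodies; the 2 clones at day 25 peak below 60% and their bodies peak above 80%, to the right of the wild type at day 25.

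The gain turned an intermediate methylome into a largely methylated one. Among 1792129 CpGs with at least 10 calls in each of the 4 libraries, 74.6% (N5) and 71.8% (N9) had a level between 20 and 80% at day 25, and 35.7% and 36.6% did in bodies. CpGs at 80% or more made up 7.10% and 8.35% at day 25 and 53.9% and 53.5% in bodies. CpGs at 20% or less fell from 18.3% and 19.8% to 10.4% and 9.84%. The class of intermediate CpGs thus lost members mostly to the upper end, by similar amounts in both clones.

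Where CpGs are sparse the gain was large, and where they are dense it was small. At 9137156 CpGs with fewer than 10 CpGs within 500 bp, levels rose from 54.9% (N5) and 53.8% (N9) to 79.3% and 79.8%, a change of 25.2 ± 1.14 points. With 10 to 19 CpGs in 500 bp, levels rose from 43.7% and 42.3% to 69.3% and 67.8%, a change of 25.6 ± 0.0458 points. At the 1008471 CpGs with 20 or more neighbours in 500 bp, a density typical of CpG islands, levels went from 4.48% and 4.27% to 9.04% and 7.76%, a change of 4.03 ± 0.756 points. The dense CpGs thus rose from a low base and stayed below 10% in both clones. In the wild type the 3 classes gained 8.90, 10.1 and 1.54 points.

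Bodies of protein-coding genes, more than 2 kb from a start, gained 25.6 ± 0.104 points, and CpGs over 10 kb from any gene gained 24.1 ± 1.55 points. Within 2 kb of a transcription start the gain was 12.7 ± 1.76 points, from 20.9% and 21.0% to 34.9% and 32.4%. Chromosomes differed little, with gains between 22.5 ± 0.187 points on chromosome 17 and 24.2 ± 0.212 points on chromosome 8. Chromosome 8, whose coverage was raised in the clones, thus lay at the upper end of a range of less than 2 points.

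Around transcription starts the shape of the methylation profile was kept while its flanks rose. At 9109 starts with at least 60 CpGs within 1 kb, the 250 bp bin centred 125 bp upstream went from 0.490% (N5) and 0.506% (N9) to 1.37% and 1.34%. At the same starts, the bin 4875 bp upstream went from 40.2% and 39.8% to 64.3% and 62.7%. At 4064 starts with 20 to 59 CpGs, the bin 125 bp upstream rose from 14.3% and 13.5% to 26.9% and 25.7%. At 3283 starts with under 20 CpGs, that bin rose from 48.8% and 48.6% to 73.7% and 75.6%. The dip at the start was thus nearly complete at CpG-rich starts. At starts with under 20 CpGs it was shallow, with the bin 375 bp upstream at 54.1% and 52.1% at day 25 and 77.1% and 78.4% in bodies.

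**Figure D2:**
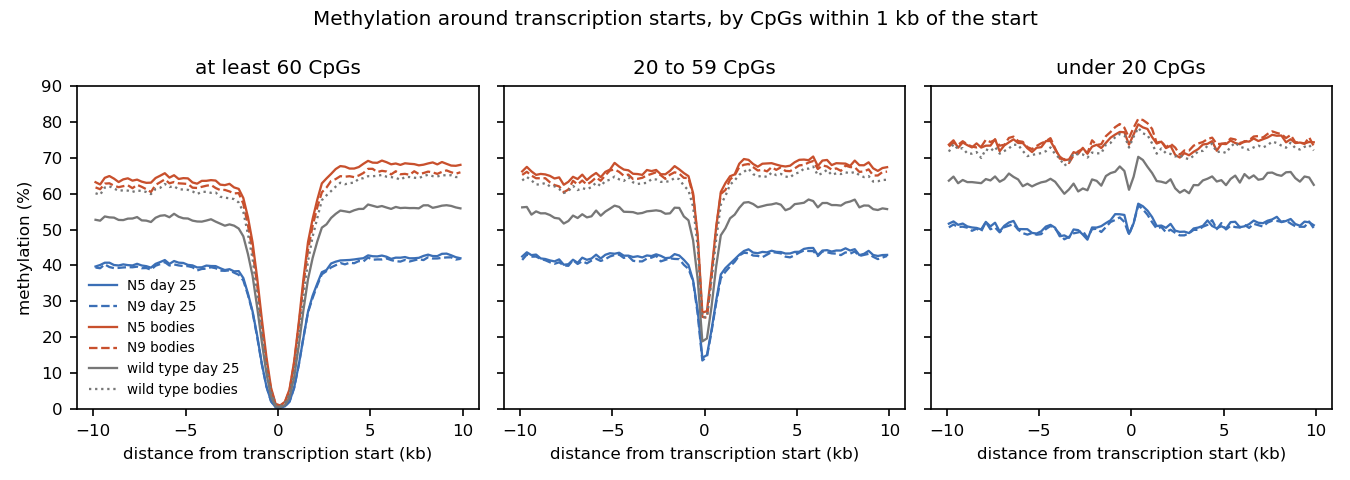
Methylation (%) in 250 bp bins against distance from the transcription start (kb), averaged over starts with at least 60, 20 to 59 or under 20 CpGs within 1 kb, for the 4 knock-in and 2 wild-type libraries. At CpG-rich starts all 6 lines meet near 0 at the start, while 5 kb away the bodies lie more than 20 points above the day 25 cells of the same clone.

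To ask which regions changed, the autosomes were cut into 10 kb tiles, and the 233969 tiles covered by 30 or more calls in each library were tested with edgeR's quasi-likelihood test on methylated and unmethylated counts. At an adjusted p (Benjamini-Hochberg) below 0.05, 232580 tiles (99.4%) were higher in bodies and 0 (0%) were lower, and at an unadjusted p below 0.05 the lower count was also 0. limma on logit values called 232539 higher and 2 lower. Both body libraries lay above both day 25 libraries in 233178 tiles (99.7%). With nearly every tile called, a call says little about any single tile, and the sizes of the gains carry the description. After each library's median was subtracted, so that only departures from the general rise count, limma called 256 tiles higher and 2063 lower. The general rise itself was 1.70 in median log2 odds over tiles and 1.61 over gene windows.

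The median tile gained 23.95 points, with 22.9 in N5, 25.1 in N9 and 8.46 in the wild type. Median tile levels rose from 56.7% (N5) and 55.4% (N9) to 80.3% and 81.4%. Tiles above 70% made up 2.86% and 2.38% of all tiles at day 25 and 85.1% and 86.5% in bodies. The middle 50% of tiles narrowed, spanning 11.5 and 11.9 points at day 25 and 8.78 and 7.99 points in bodies. The wider span, from the 5th to the 95th percentile, hardly changed in N5 (25.99 to 67.9% at day 25, 46.3 to 87.6% in bodies). In N9 it did not narrow (25.6 to 67.3%, then 44.4 to 88.0%). The tiles of the bodies were thus higher in each clone, and more even only in their middle 50%.

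How much a tile gained went with the level it had at t=0. Tiles at 0 to 10% before doxycycline gained a median of 4.72 points, those at 20 to 30% gained 11.8, and those at 50 to 60% gained 27.0. Above that the gain fell again, to 24.03 points at 70 to 80% and 12.7 points among the 227 tiles at 90 to 100%, which had least room to rise. To keep the day 25 level apart from the gain, tiles were also grouped by the day 25 level of 1 clone and the gain read in the other. Among tiles at 40 to 50% in N5 the median gain in N9 was 28.6 points, and among those at 70 to 80% it was 18.03 points. Grouped by N9, N5 gained 26.6 and 15.9 points in the same classes. The smallest gains were in tiles at 0 to 10% at day 25 in the other clone, with 6.25 points in N9 and 8.14 in N5. Gains were thus largest at intermediate day 25 levels of the other clone, as they were at intermediate levels at t=0.

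The clones differed in a regular way. In tiles with under 40 CpGs, N9 gained a median of 25.3 points and N5 21.2, while in tiles with at least 250 CpGs N5 gained 12.1 and N9 9.14. By level at t=0, N5 gained more below 40% (17.6 against 15.4 points at 30 to 40%) and N9 more above 60% (27.7 against 25.3 points at 60 to 70%). Across the 233969 tiles the gains of N5 and N9 had a Pearson r of 0.482 and a Spearman rho of 0.444. Tiles are not independent replicates and share CpG density and depth, so these coefficients are descriptions.

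**Figure D3:**
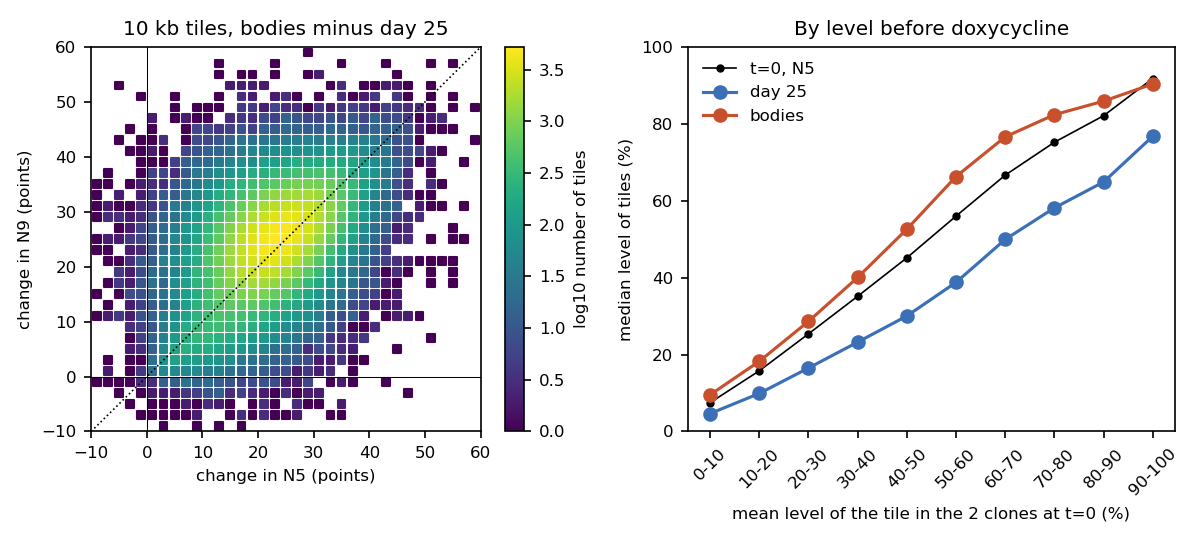
Left, change in methylation (points, bodies minus day 25) of each 10 kb tile in clone N5 against clone N9, coloured by the log10 number of tiles in a 2-point square, with the line of equal change dotted. Right, the median level (%) of tiles grouped by their level at t=0, for N5 at t=0 and for the mean of both clones at day 25 and in bodies; the distance between the day 25 and body lines is widest for tiles at 50 to 60%.

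The 5 tiles with the largest gains all had low levels at day 25 in both clones and reached between 78.8 and 91.4%. The tile chr10:15060001-15070000, between genes and 75202 bp from Gm23892, rose from 14.5% (N5) and 22.6% (N9) to 78.8% and 87.5%, while the wild type went from 38.7% to 73.1%, but its thinnest library had 31 calls. The tile chr18:40300001-40310000, in Kctd16, which encodes an auxiliary subunit of GABA-B receptors, rose from 28.9% and 18.2% to 80.2% and 88.7%. Before doxycycline this tile was at 22.5% and 19.5%, so it did not return to an earlier level but rose far above it, and in the wild type it went from 18.7% to 35.3%. Its gain of 60.9 ± 13.5 points was larger than that of the wild type (adjusted p = 9.8e-06, edgeR quasi-likelihood test of the difference). The tile chr13:69880001-69890000, nearest Med10, rose from 24% and 25.8% to 79.8% and 83.3%, and chr8:101710001-101720000, nearest Gm32477, from 28.9% and 25.0% to 80% and 82.8%. The tile chr2:89870001-89880000, beside the odorant receptor gene Olfr1257, rose from 32.7% and 37.8% to 91.4% and 87.4%, while the wild type stayed at 84.5% and 84.6%.

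At genes, 28311 windows of 1000 bp on either side of a transcription start were tested, or of the end of the gene with more CpGs where no start was listed. By edgeR's quasi-likelihood test 22481 windows (79.4%) were higher in bodies and 1 (0.00353%) was lower, at an adjusted p below 0.05. Both body libraries lay above both day 25 libraries in 25606 windows (90.4%). The median window gained 12.6 points, the middle 50% of windows between 2.63 and 25.2, and 10717 windows (37.9%) gained 20 points or more. limma on values centred on each library's median called 0 windows in either direction (2451 higher, 1924 lower by unadjusted p below 0.05), so no single window was shown to depart from the general rise. Windows are not all separate, since 20.3% share CpGs with another window tested.

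The gain at genes followed CpG content in points, but much less so in odds. Among 12526 windows with at least 60 CpGs, 8113 rose and the median gain was 2.38 points, from medians of 1.62% (N5) and 1.66% (N9) to 4.50% and 4.13%. Among 9987 windows with 20 to 59 CpGs, 9390 rose and the median gain was 23.9 points, from 39.96% and 38.8% to 71.8% and 71.3%. Among 5798 windows with under 20 CpGs, 4978 rose, with a median of 23.96 points. On the scale of log2 odds, the log2 of the ratio of methylated to unmethylated calls, the median changes were 1.33, 1.81 and 1.72. Among CpG-rich windows, the 8100 below 5% at t=0 gained a median of 1.36 points and the 44 at 50% or more gained 29.1. In log2 odds their medians were closer, at 1.37 and 2.00. The number of CpGs was not held equal between these classes.

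The 10 largest gains, among called windows with at least 20 CpGs whose libraries did not overlap, ranged from 55.5 to 64.4 points. The window of 4930579D09Rik went from 14.8% (N5) and 17.2% (N9) to 81.3% and 79.5%, a change of 64.4 ± 2.94 points (adjusted p = 1.22e-10, edgeR). Spic, a transcription factor of macrophages of the spleen, went from 24.6% and 12.2% to 76.8% and 82.1%. Il18r1 went from 16.5% and 7.75% to 76.4% and 65.7%, a change of 58.9 ± 1.37 points, while the wild type went from 47.2% to 53.4%. Klf17, a Krüppel-like transcription factor of the early embryo, went from 19.6% and 21.1% to 73.6% and 80.3%. Nos1, the neuronal nitric oxide synthase, went from 24.2% and 28.1% to 83.0% and 80.3%, and was the only CpG-rich window of the 10, with 65 CpGs. S100a14, an S100 calcium-binding protein measured at a gene end, went from 26.3% and 29.5% to 84.1% and 84.2%. The other 4 were the lncRNAs Gm34948, LOC118027456, 4930459C07Rik and Gm33575. In each of the 10 the lowest body library of the clones lay far above their highest day 25 library. Bodies also stood above the level of t=0, which was 43.4% and 49.2% at Il18r1. At Gm33575 the level was 29.8% and 29.1% at t=0, 9.39% and 7.90% at day 25, and 61.8% and 66.6% in bodies.

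**Figure D4:**
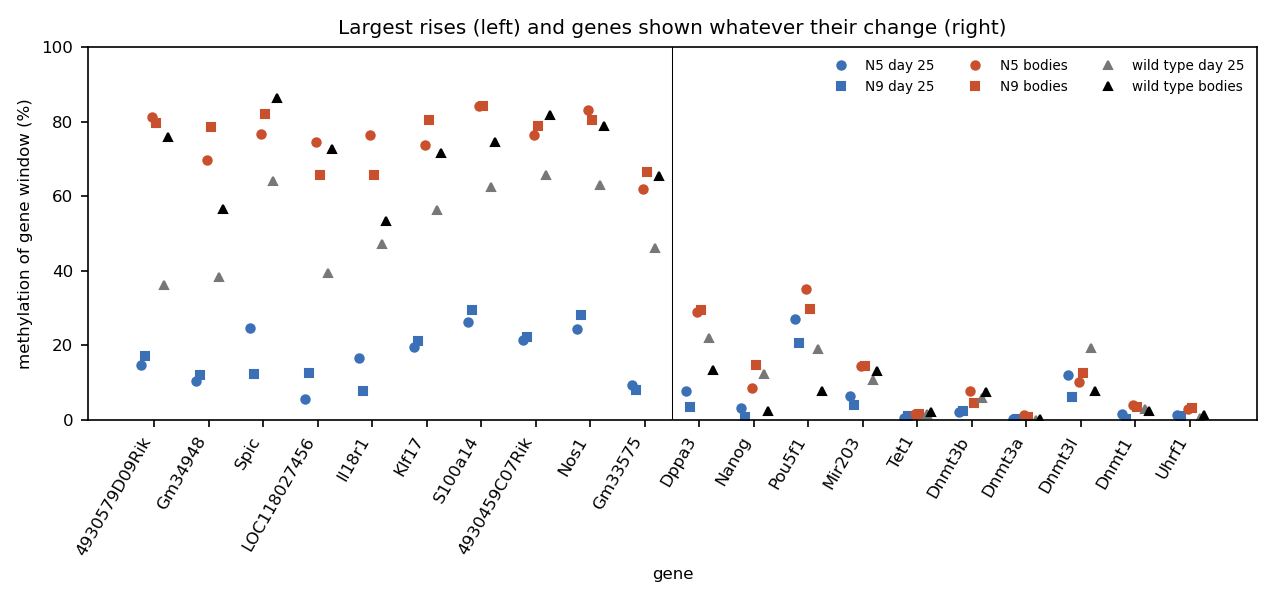
Methylation (%) of gene windows in each library: left, the 10 largest gains; right, genes shown whatever their change. Circles are clone N5, squares clone N9 and triangles the wild type; the 10 windows at left go from below 30% at day 25 to above 60% in bodies, while the windows at right change much less.

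The only window called lower was that of the lncRNA 2310010J17Rik, at 2.84% (N5) and 13.2% (N9) at day 25 and 1.18% and 2.49% in bodies, a change of -6.20 ± 6.40 points (adjusted p = 0.00824, edgeR). The fall came almost entirely from N9. It was not called by limma, in windows of 500 bp, without N9 at day 25, or without the N5 bodies.

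Genes that somatic cells are known to methylate, most of them for meiosis and for silencing transposons with piRNAs in germ cells, had the highest median gain of the 14 lists in points. All 32 measured genes of this list (of 34 listed) were called higher in bodies, against 79.4% of all windows, and 24 gained 20 points or more, against 37.9% of all windows. Of the 32, 29 gained more than the median of all windows. Their median gain was 27.9 points against 12.6 over all windows, and 2.08 against 1.61 in log2 odds. The wild type gained a median of 10.7 points at the same windows. Hormad2 led, from 19.9% (N5) and 8.87% (N9) to 63.0% and 66.1%, a change of 50.2 ± 9.97 points (adjusted p = 1.31e-08, edgeR), and the wild type went from 23.0% to 61.8%. Asz1, a piRNA pathway protein, went from 31.7% and 38.3% to 84.6% and 73.2%, and Rpl10l, a testis copy of a ribosomal protein gene, from 8.65% and 10.9% to 54.2% and 37.2%. In each clone Hormad2 and Rpl10l were higher in bodies than at t=0, when they were at 23.3% and 24.2% and at 39.5% and 27.2%. Dazl, an RNA-binding protein of germ cells, went from 20.7% and 18.4% to 41.2% and 44.95%, and the piRNA-binding protein gene Piwil1 from 39.9% and 38.6% to 81.3% and 70.2%, both named after their values were seen. The smallest gain of the list was that of Zfp42 (Rex1), a pluripotency gene named after its values were seen, at 4.38 ± 1.61 points.

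Naive pluripotency genes gained little in points, and here the wild type often moved the other way. Of 23 measured genes (of 24), 16 rose and 0 fell, where 79.4% of all windows rose. The median gain was 4.38 points and 1.71 in log2 odds, against 12.6 and 1.61 over all windows. Of the 23 windows 13 are CpG-rich, a class in which 64.8% rose, with medians of 2.38 points and 1.33 in log2 odds. In windows of 500 bp 9 of 23 rose, where 15942 of 26319 of all such windows did. In the wild type 13 of the 23 windows were lower in bodies than at day 25, where 24.8% of all windows were, with a median change of -0.527 points. Nanog went from 3.04% (N5) and 0.785% (N9) to 8.60% and 14.6%, a change of 9.69 ± 5.83 points, while the wild type went from 12.2% to 2.43%. Dppa3 (Stella), a maternal factor that keeps Uhrf1 from chromatin, went from 7.60% and 3.42% to 28.9% and 29.5% at its gene end, while the wild type went from 22.0% to 13.3%. Tcl1, a coactivator of the kinase Akt, went from 4.41% and 4.56% to 23.5% and 27.8%, and Tfcp2l1, a transcription factor of the naive state, from 1.505% and 0.806% to 6.71% and 9.18%. Pou5f1 (Oct4) went from 27.1% and 20.5% to 35.05% and 29.8%, with no overlap of stages but an adjusted p of 0.0879 (edgeR). The wild type went from 18.9% to 7.69% at Pou5f1.

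The difference between genotypes passed the test in 7 of these 23 windows, all with the larger change in the clones, where 7.12% of all windows passed in that direction. The difference was 19.4 points for Nanog (adjusted p = 0.000957) and 32.4 points for Dppa3 (adjusted p = 0.00208) by edgeR's quasi-likelihood test. For Dppa4, a chromatin factor of pluripotent cells named after its values were seen, it was 41.5 points (adjusted p = 8.68e-05), with the clones going from 5.56% and 1.21% to 19.6% and 11.0% and the wild type from 31.5% to 1.95%. For Pou5f1 it was 19.9 points (adjusted p = 0.0409), and this call was lost in 2 of the 4 fits without a library. For Nanog, Dppa3 and Dppa4 the call was kept in all 4. limma on logit values put the adjusted p of these 3 between 0.0612 and 0.0692, outside the threshold. The wild type has 1 library a stage and longer differentiation, and its lone library a stage was given the spread of the other groups in the fit.

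Genes of the formative epiblast and early germ layers mostly have CpG-rich windows (14 of 17). Of the 17, 11 rose, where 79.4% of all windows and 64.8% of CpG-rich windows did. Their median gain was 2.01 points, against 2.38 in CpG-rich windows. In windows of 500 bp 7 of 17 rose, where 15942 of 26319 of all such windows did. Lefty2, an inhibitor of Nodal signalling, went from 7.28% (N5) and 5.92% (N9) to 22.8% and 25.6% at its gene end, and its gain differed from the wild type, which went from 23.2% to 15.7% (adjusted p = 0.00736, edgeR), a call not made by limma (adjusted p = 0.0832) or after centring. Cer1, an antagonist of Nodal, Bmp and Wnt, went from 43.0% and 44.5% to 63.9% and 68.4%. T (Brachyury), the mesoderm transcription factor, went from 0.931% and 1.01% to 5.48% and 2.69%, a call not made in windows of 500 bp. The windows of Otx2, Eomes, Nodal, Zic2, Lef1 and Pou3f1, all those of the list that were not called, were nearly bare, and the highest level among them was 3.00%, that of Nodal in the N9 bodies.

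At genes that write, copy, read and erase methylation gains were small. Of 21 measured (of 22), 13 rose, where 79.4% of all windows did, with a median of 2.08 points and 1.47 in log2 odds. Of the 21 windows 20 are CpG-rich, a class in which 64.8% of windows rose, with a median of 2.38 points. In windows of 500 bp 3 of 21 rose, where 15942 of 26319 of all such windows did. Setdb1, a histone H3 lysine 9 methyltransferase named after its values were seen, had the largest gain, from a mean of 12.7% to 21.5%. Dnmt1 went from 1.41% (N5) and 0.155% (N9) to 3.87% and 3.50%, Uhrf1 from 1.18% and 0.972% to 2.80% and 3.204%, Dnmt3a from 0.0884% and 0.184% to 1.18% and 0.583%, and Dnmt3b from 1.98% and 2.24% to 7.74% and 4.41%. All 4 passed edgeR's test (adjusted p between 0.00117 and 0.0123), but none of these 4 passed in windows of 500 bp. Leaving out the N5 bodies also ended the calls of Dnmt3a and Dnmt3b, leaving out N5 at day 25 that of Dnmt3a, and leaving out the N9 bodies that of Uhrf1. Dnmt3l, at 11.9% and 6.00% at day 25 and 9.98% and 12.6% in bodies, overlapped between stages (adjusted p = 0.384, edgeR). Tet1, which encodes a dioxygenase that oxidises 5-methylcytosine, was at 0.438% and 1.05% at day 25 and 1.62% and 1.42% in bodies (adjusted p = 0.115, edgeR). The lowest p-values of the list were at genes of proteins that bind methylated DNA or are related to Uhrf1. Zbtb38 went from 0.999% and 1.68% to 7.68% and 6.27%, Uhrf2 from 1.63% and 1.21% to 6.92% and 6.00%, and Mbd1 from 4.35% and 2.18% to 12.1% and 10.1% at its gene end. Zbtb38 was not called in windows of 500 bp.

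Around the hairpin of Mir203 on chromosome 12, the window of 125 CpGs went from 6.44% (N5) and 3.97% (N9) to 14.3% and 14.5%, a change of 9.16 ± 1.87 points (adjusted p = 0.000371, edgeR). Both clones were at about the level of t=0 again, 12.0% and 12.4%, and the wild type went from 10.8% to 13.0%. The difference from the wild type did not pass (adjusted p = 0.199). Calls from the inserted transgene cannot be told from those of the endogenous locus where their sequence is the same.

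Imprinted genes had the smallest rise of the 14 lists in log2 odds, with a median of 1.19 against 1.61 over all windows. Of 44 measured (of 45), 28 rose, where 79.4% of all windows did, and 0 fell. Stages overlapped in 13 of the 44, against 2626 of 28311 windows of all genes and 2040 of 12526 CpG-rich windows. The median gain was 7.00 points. Of the 44 windows 35 are CpG-rich, a class in which 64.8% of windows rose, with medians of 2.38 points and 1.33 in log2 odds. Snrpn, whose start lies in a maternally methylated control region, was at 16.4% (N5) and 24.4% (N9) at day 25 and 13.7% and 24.01% in bodies. Meg3, a lncRNA of the Dlk1-Dio3 domain, was at 32.6% and 21.5% and then 34.6% and 22.6%. Both windows lay within 3 points of their day 25 level in each clone, while the median window gained 12.6. In the wild type Snrpn stood at 61.3% and 58.0% and Meg3 at 33.5% and 25.2%. Kcnq1ot1, the antisense RNA of another control region, went from 12.6% and 9.15% to 15.6% and 24.01%, and Peg3, a zinc finger gene, from 9.76% and 5.11% to 12.3% and 25.2%. For both, N9 gained several times as much as N5. The wild type stood at 52.4% and 64.7% at Kcnq1ot1. The 4 genes were named after their values were seen.

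Some other members of the imprinted list rose in both clones, while Peg10 fell in N9. Rian, a lncRNA of the Dlk1-Dio3 domain, went from 51.3% (N5) and 45.7% (N9) to 87.2% and 78.8%, Ddc, the dopa decarboxylase gene, from 59.4% and 52.1% to 85.0% and 84.8%, and Phlda2, which restrains placental growth, from 0.671% and 0.550% to 5.37% and 4.65%. H19, a lncRNA named after its values were seen, went from 64.7% and 65.9% to 87.9% and 78.8% at its gene end. Peg10, a gene derived from a retrotransposon, was at 11.7% and 15.3% at day 25 and 15.3% and 7.38% in bodies, while the wild type went from 5.26% to 22.5%. Its change was below that of the wild type by 19.4 points (adjusted p = 0.0343, edgeR), a call lost in 2 of 4 fits without a library and with limma (adjusted p = 0.134).

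Cardiac and mesoderm genes, of which 9 of 23 have CpG-rich windows, rose in 22 of 23, where 79.4% of all windows did, with a median of 24.1 points. Tnnt2 (troponin T of the heart) went from 43.0% (N5) and 36.6% (N9) to 80.1% and 83.3%, Nppb, a natriuretic peptide, from 9.16% and 9.92% to 48.7% and 46.3%, and Myl7, the atrial myosin light chain, from 11.5% and 8.30% to 42.6% and 39.1%. Tbx20, a cardiac transcription factor with 85 CpGs named after its values were seen, was at 2.5% and 2.98% and then 2.46% and 3.06%. Neural genes, whose 17 measured windows are all CpG-rich, rose in 13, where 79.4% of all windows and 64.8% of CpG-rich windows did. Their medians were 2.28 points and 2.04 in log2 odds, against 2.38 and 1.33 in CpG-rich windows. In windows of 500 bp 6 of 17 rose, where 15942 of 26319 of all such windows did. Pax6 went from 0.985% and 2.63% to 10.5% and 6.96%, Pax3 from 0.930% and 2.53% to 7.77% and 5.82%, and Tubb3, the neuronal tubulin, from 1.24% and 1.16% to 6.78% and 6.15%. The same list is thus near the lowest in points and near the highest in odds.

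Endoderm and liver genes were close to the background of 79.4% called and a median of 12.6 points, with 18 of 20 windows called higher and a median of 11.8 points. Ttr (transthyretin, measured at a gene end) went from 39.0% (N5) and 42.9% (N9) to 80.1% and 83.4%, Hnf4a, a liver transcription factor, from 54.3% and 56.2% to 89.0% and 86.0%, and the apolipoprotein gene Apoa2 from 3.04% and 2.55% to 14.5% and 14.7%. Blood genes rose in 13 of 14 windows, where 79.4% of all windows did, with a median of 20.1 points: Itga2b, the platelet integrin, went from 48.6% and 54.8% to 81.2% and 81.7%, Cd34 from 10.8% and 10.3% to 26.3% and 30.6%, and Kdr, a receptor for vascular endothelial growth factor, from 1.78% and 1.41% to 6.60% and 8.10%. Trophoblast genes were also close to that background, with 11 of 13 called higher and a median of 12.2 points. Elf5, whose promoter is known to be methylated in embryonic but not trophoblast cells, went from 34.3% and 36.8% to 70.2% and 69.9%. Gcm1, a transcription factor of the placental labyrinth, went from 47.9% and 31.9% to 70.3% and 74.9%. Plet1 went from 13.2% and 11.1% to 38.6% and 47.8%, while the wild type went from 33.7% to 19.5% (difference 45.2 points, adjusted p = 0.00108, edgeR), but limma put the adjusted p of this difference at 0.0625 and the centred fit did not call it.

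Hox genes, which sit in clusters kept free of methylation in pluripotent cells, rose in 38 of 39 windows, where 79.4% of all windows did. Their median gain was 7.66 points, against 12.6 over all windows and 2.38 over CpG-rich windows. Of the 39 windows 35 are CpG-rich, a class in which 64.8% of windows were called higher. Hoxd4 went from 43.4% (N5) and 31.0% (N9) to 79.1% and 75.8%, Hoxd12 from 6.18% and 7.39% to 28.2% and 29.4%, and Hoxd10 from 1.38% and 1.247% to 13.6% and 6.75%. Hoxa13, named after its values were seen, was not called, at 2.08% and 1.99% and then 5.20% and 1.73%. The change was called larger than in the wild type in 7 of the 39 windows, where 7.12% of all windows were, and in 0 smaller. Of the 7, Hoxa5, Hoxd8 and Hoxb5 kept the call in all 4 fits without a library, Hoxb6 in 2, Hoxd9 and Hoxd10 in 1 and Hoxb4 in 0, and none of the 7 passed with limma (adjusted p between 0.0619 and 0.116).

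Of the genes of the cleavage-stage embryo, 11 of 22 could be measured and 8 rose, close to the 79.4% of all windows. These windows held a median of 11 CpGs, and 1 of them is CpG-rich. Their median gain was 24.8 points, against 23.96 in all windows with under 20 CpGs. In windows of 500 bp 6 could be measured and 5 rose, where 15942 of 26319 of all such windows did. Tcstv1 (at a gene end) went from 58.8% (N5) and 55.6% (N9) to 86.4% and 91.2%, Usp17le (at a gene end) from 61.8% and 46.2% to 81.0% and 85.0%, and Spz1 from 59.6% and 55.3% to 80.1% and 83.9%. Many genes of this list have near-identical copies, so reads may have been shared among them and single values are uncertain. Housekeeping genes rose in 8 of 13 windows, where 79.4% of all windows rose, with a median of 3.09 points. Of the 13 windows 10 are CpG-rich, a class in which 64.8% of windows rose. In windows of 500 bp 2 of 13 rose, where 15942 of 26319 of all such windows did. Gapdh, named after its values were seen, was at 0.0785% and 0.150% and then 0.353% and 0.508%, and was not called. Actb and Ywhaz, which gained 25.7 and 20.6 points, were measured at gene ends with 25 and 18 CpGs that may miss the promoter in use.

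**Figure D5:**
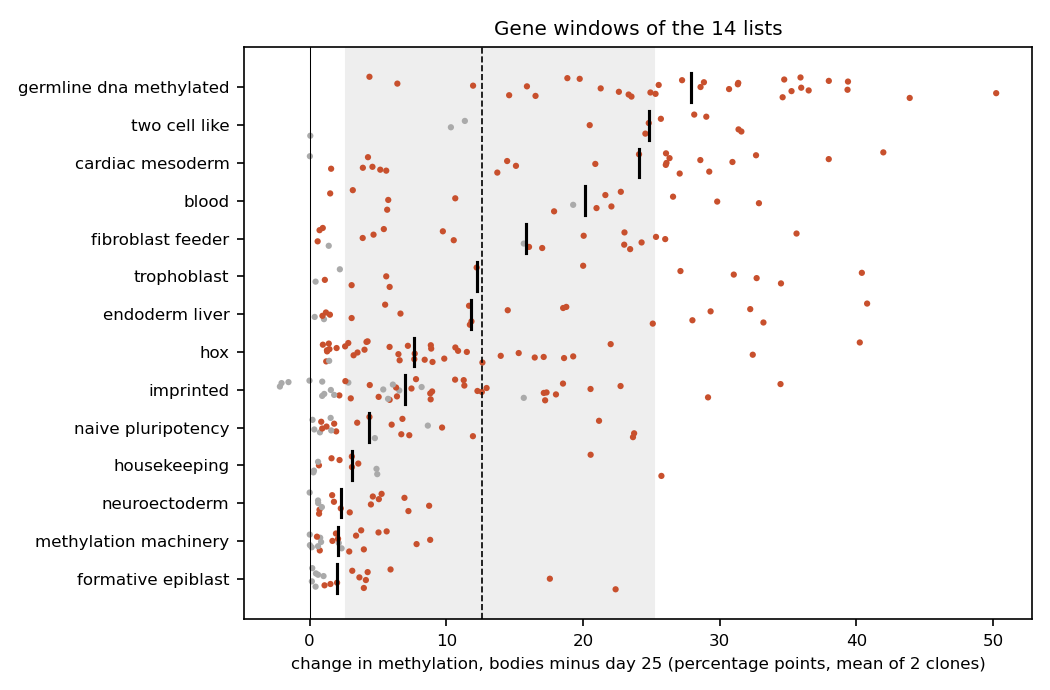
Change in methylation (points, mean of the 2 clones, bodies minus day 25) of each measured gene window in the 14 lists, in the order of the list medians (black bars). Coloured points passed edgeR's test and grey points did not; the dashed line is the median of all 28311 windows, 12.6 points, and the band is their middle 50%, from 2.63 to 25.2, with germline genes at the top and formative epiblast genes at the bottom.

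Fibroblast genes were followed because feeder cells are commonly fibroblasts. Of 20 measured genes 18 rose, where 79.4% of all windows did, with a median of 15.9 points, and Col5a1 and Dcn were not called. The mean level of the 20 windows was 23.1% (N5) and 24.4% (N9) at day 25 and 37.2% and 39.1% in bodies, and 23.3% and 38.6% in the wild type. In the wild type their median gain was 10.5 points, against 3.09 over all windows. There 0 of the 20 were lower in bodies, where 24.8% of all windows were. The change in the clones minus that in the wild type had a median of 0.121 points, against 5.37 over all windows. S100a4 went from 42.4% and 38.2% to 74.6% and 77.2%, Col1a2 from 5.54% and 9.60% to 26.4% and 22.7%, and Prrx1 from 0.773% and 0 to 4.91% and 5.21%. The collagen genes Col1a1 (at a gene end) and Col3a1, named as defining markers, went from 27.9% and 23.9% to 46.2% and 52.5%, and from 47.1% and 61.5% to 67.2% and 73.6%. The share of feeder DNA in any library, and its part in the results, was not tested.

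Between genotypes, the gain was larger in the clones in 2015 windows (7.12%) and smaller in 6 (0.0212%), and larger in 146512 tiles (62.6%) and smaller in 36 (0.0154%), by edgeR's quasi-likelihood test of the difference. The 2015 windows, which were selected by this difference, had a median change of 23.1 points in the clones and -1.76 points in the wild type. The window count depends on the test: limma on logit values called 12 higher and 0 lower, with 7074 and 80 at an unadjusted p below 0.05. It was 1190 without N5 at day 25, 966 without N9 at day 25, 1264 without the N5 bodies and 1255 without the N9 bodies, and 767 in windows of 500 bp. With each library's median subtracted, limma called 0 windows and 0 tiles.

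Of the 5 largest differences with the clones above the wild type, 4 were in windows whose thinnest library had 11 to 16 calls. The lncRNA Gm40691 went from 34.1% (N5) and 25.0% (N9) to 79.1% and 76.5% while the wild type went from 52.9% to 26.1%. Cd209f, Cdh19, Klrk1 and the lncRNA Gm28231 differed by 63.7 to 67.3 points, with at least 14, 16, 12 and 53 calls in every library. Of these 5, Gm28231 kept its call in all 4 fits without a library, Cdh19 in 1, and the other 3 in none. In the opposite direction the lncRNA Gm41835 was at 68.8% and 58.2% and then 75.7% and 72.5%, while the wild type went from 34.0% to 87.5%. Ccna2, the cyclin A2 gene, measured at a gene end, was at 9.32% and 13.5% and then 16.6% and 18.8%, while the wild type went from 5.96% to 43.3%. Il11ra1, a receptor for interleukin 11, and H2-T23, a class Ib histocompatibility gene, also gained less in the clones than in the wild type. Of the 5 genes with the smaller change, Ccna2 kept its call in 3 of 4 fits without a library, Gm41835 and Peg10 in 2, H2-T23 in 1 and Il11ra1 in 0.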

How the data were processed

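The authors deposited 1 table of CpG positions on build mm10 with, per the file headers, for each library the counts of calls that were methylated and of calls in all. These are unnormalized whole numbers, and no methylated count exceeded its coverage. Per the labels' protocols, DNA of mouse iPS cells and embryoid bodies was oxidised before bisulfite treatment, which keeps 5-hydroxymethylcytosine out of the methylated calls, and sequenced. Per the submitters' processing notes, BWA and Picard 1.91 were used; for methylation calling the tool was not given in the sources used here. All 32 value columns were used and 0 were left over. Wild-type stages have 2 coverage columns each, taken as lanes and summed.

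Windows reach 1000 bp to either side of the RefSeq start (25748 autosomal genes) or, where none was listed, of the gene end with more CpGs (4209 genes), which can miss the promoter in use. Windows needed 5 CpGs and 10 calls in every library, and tiles of 10000 bp needed 30 calls, with the first 3000000 bp of each chromosome left out. Methylated and unmethylated counts were fitted with edgeR 4.0.16 (quasi-likelihood test, R 4.3.3) over all 12 libraries, with 1 group for each of 8 combinations of genotype and stage and 4 residual degrees of freedom, with Benjamini-Hochberg adjustment over all windows or tiles, and the script was tested on simulated data. limma 3.58.1 on log2((methylated + 1)/(unmethylated + 1)) was an alternative, also centred on each library's median. Other alternatives were a clone block, other minimums, the 4 knock-in libraries alone, 500 bp windows, 2000 bp tiles and leaving out each library. Levels used numpy 2.4.6 and pandas 2.3.3.

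N5 and N9 are separate clones, so a clone's libraries are paired by line; the clones' difference at day 25 and in bodies had r = 0.00900 over tiles and 0.0111 over windows. Genes named are the 10 largest rises and falls among called windows with at least 20 CpGs and no overlap of stages, the 3 of each list with the lowest p, the 5 largest called differences from the wild type each way, the 5 largest tile changes each way, and Mir203, Dnmt1, Dnmt3a, Dnmt3b, Dnmt3l, Uhrf1, Tet1, Pou5f1, Nanog and Dppa3. Other genes are named as chosen after their values were seen. The comparison, the 14 gene lists (307 of 332 entries measured) and the rules were chosen with earlier results of these data known. Promoter sequences come from RefSeq on GRCm38.p6. Sex chromosomes, mitochondrial DNA and unplaced sequence were left out of all levels and tests.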

Additional observations from a re-analysis of the deposited data

Results flagged for a closer look

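The change from day 25 cells to bodies differed between the knock-in clones and the wild type in 2015 gene windows with the larger change in the clones and 6 with the smaller, and in 146512 and 36 tiles of 10 kb, by edgeR's quasi-likelihood test of the difference (adjusted p below 0.05). Among genes, the change in the clones minus that in the wild type was 75.08 points at Gm40691, 67.3 at Cd209f, 66.12 at Cdh19, 65.65 at Gm28231 and 63.65 at Klrk1. In the other direction it was -42.9 points at Gm41835, -30.99 at Ccna2, -19.4 at Peg10, -18.43 at Il11ra1 and -13.77 at H2-T23. The wild type had 1 library a stage and its bodies a longer labelled differentiation, and the genes are the 5 largest each way among those called.

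Outside the autosomes, reads over the first part of chromosome Y, as a ratio to the coverage of chromosome 5, came to 0.01279 (N5) and 0.01056 (N9) among day 25 cells, above the 0.00150 of the wild type at that stage. In the bodies of the clones it was 0.000893 and 0.000224, and at t=0 0.0380 and 0.0392. Its part in the results was not tested.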

How the results depend on the processing

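The rise of autosomal methylation (23.6 points) lay between 23.4 and 23.7 points under every other way of averaging that was tried. Its SD between clones was 0.965 points with each CpG given equal weight, against 0.0333 in pooled calls. With each library's median subtracted (limma, centred), 0 windows rose and 0 fell (2451 and 1924 at an unadjusted p below 0.05), and 256 tiles rose and 2063 fell. In the same centred fit, 0 windows had a larger and 0 a smaller change than the wild type (1454 and 795 at an unadjusted p below 0.05), and the same counts were 0 and 0 for tiles (8175 and 8980). limma without centring called 7 windows and 2 tiles lower, 12 windows with a larger and 0 with a smaller change than the wild type (80 at an unadjusted p below 0.05), and 62 tiles with a smaller one.

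In windows of 500 bp 20 fell, 767 had a larger change than the wild type and 0 a smaller one (107 at an unadjusted p below 0.05). In tiles of 2 kb 850664 of 916695 rose, 14 fell, 93795 had a larger and 88 a smaller change than the wild type. Without a minimum of calls 2 windows and 10 tiles fell. Leaving out 1 library at a time gave 3 to 6 windows lower, 966 to 1264 windows with a larger and 1 to 5 with a smaller change than the wild type, 0 to 5 tiles lower and 36 to 59 tiles with a smaller change. The cause was not tested.

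With the clone as a replicate block, 22468 windows rose (22306 of them shared with the fit without it) and 2 fell. In that fit 232538 tiles rose, and 2225 and 7 windows and 145136 and 36 tiles differed from the wild type. All 72 results for named genes stayed as they were in the main fit, called or not. Outside the centred fit, where a change of sign was not counted as a reversal, no called change of a named gene reversed in direction. Of the 72, 3 lost the call with limma, and 11 of 69 did in windows of 500 bp. With centring 66 lost the call, and the remaining 6 had no call in the main fit. With a mean of 5.80 to 9.11 calls at a CpG, single CpGs are imprecise, and changes of under 2 points at CpG-rich windows rest on a few methylated calls.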

Other observations

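Mitochondrial CpGs, which lie outside the levels above, had 0.526% of calls methylated in N5 and 0.156% in N9 at day 25, and 0.414% and 0.260% in bodies. Among 19343 windows of protein-coding genes the median gain was 5.97 points, and among 8968 windows of other genes it was 23.3 points, while the medians in log2 odds were 1.52 and 1.78. Tiles within 2 points of their day 25 level numbered 113 of 233969, tiles that gained 40 points or more numbered 633, and 12 tiles were lower in both clones.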
